A study of Mus musculus with 9 samples.

Results

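The proteasome genes of 6620c1, a line of mouse pancreatic tumor cells, were measured on 3 days of a culture deprived of nutrients and oxygen. A gene was taken when its symbol began with Psm, one of the letters a to g, and a number. This gave 50 of the 24493 genes in the table, and 0 of the matching names carried the -ps ending that marks a pseudogene. They were 16 core genes (Psma and Psmb other than the immunosubunits), 3 immunosubunits, 20 cap genes (Psmc and Psmd), 5 activators (Psme), 4 chaperones of the core (Psmg), the inhibitor Psmf1, and Psmc3ip. Psmc3ip matched by its letters alone. It encodes a cofactor of meiotic recombination that binds an ATPase of the cap and is not a subunit, so it is kept apart below.

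The proteasome is the protease that degrades ubiquitin-tagged proteins. Its 20S core is a barrel of stacked rings: the outer alpha rings gate the channel and the inner beta rings hold the active sites of Psmb5, Psmb6 and Psmb7. The 19S cap receives and unfolds substrates, with a base of ATPases and ubiquitin receptors and a lid that carries the deubiquitinase Psmd14. Interferon gamma induces 3 replacement active-site subunits, Psmb8, Psmb9 and Psmb10, which take the places of Psmb5, Psmb6 and Psmb7 in the immunoproteasome and change which peptides reach MHC class I. Psme1 and Psme2 form an alternative, interferon-inducible activator of the core, Psme3 a nuclear one, and Psme4 an activator of yet another kind. In mammalian cells the transcription factor Nfe2l1 raises the proteasome genes together when proteasome activity falls short, by way of antioxidant response elements.

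RNA was sequenced from 3 samples at day 14, 3 at day 2 and 3 at day 0. The medium was DMEM holding 2.5 mM glucose and 0.5% fetal calf serum, with amino acids at 20% of the usual level. The labels list that medium for every sample, the day 0 samples included, and give no genotype change, added agent or oxygen level. The names of all 9 columns begin with WT, which the labels do not explain. Undeprived samples of the same age are not part of the design, so the effect of deprivation and that of time cannot be told apart. Whether the 3 samples of a day were grown as separate cultures is not stated, and the p-values cover only the spread among them, which may be technical.

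Values are TPM per gene, a length-corrected abundance that the authors scaled to 1 common total per sample. TPM hold no read totals, so depth is unknown. The keratin and cadherin genes of epithelial cells were abundant: the 6 epithelial markers summed to 11106 ± 328, 6514 ± 1058 and 7455 ± 950.3 TPM at days 0, 2 and 14 (SD, n = 3 each). The fall of that sum lay in the keratins, while Cdh1 (0.73) and Epcam (2.20, at a low level) were called higher at day 14 against day 0 on the log2 scale. Markers of other cells were near 0: the 4 fibroblast markers summed to at most 0.959 TPM in any sample and the 3 endothelial markers to at most 0.979 TPM. The 7 immune markers summed to 2.32 ± 0.128, 4.14 ± 0.998 and 7.86 ± 1.57 TPM at days 0, 2 and 14 (SD, n = 3 each), most of it Cd68, a lysosomal protein of macrophages that other cells also make. The other 6 stayed under 1 TPM in every sample, and Cd3e and Lyz2 were listed at 0 in each sample of days 0 and 2. One microRNA gene, Mir6236, took 22.5% of all TPM in replicate 3 of day 2, where the remaining samples had 8.27% to 14.6%, which lowers the TPM of every other gene in that sample. In bulk samples, fewer cells of a type and less RNA per cell cannot be told apart.

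Proteasome transcripts were at their lowest at day 2 and partly higher again at day 14. Without Psmc3ip, the members made up 0.730% to 0.753% of all TPM at day 0, 0.358% to 0.428% at day 2 and 0.492% to 0.589% at day 14, and the ranges did not overlap. Of the 50 genes, 46 reached 1 TPM in at least 3 samples and were tested with limma on log2(TPM + 1). A log2 fold change on this scale understates the change of low genes. Relative to day 0, 37 of the 46 fell at day 2 and 0 rose, and the median log2 fold change of the 46 was -1.03. The 9 that were not called at day 2 were Psmb1, Psmc6, Psmd5, Psmd10, Psme1, Psme4, Psmf1, Psmg2 and Psmg4. Over all 12693 genes tested, 31.9% fell and 27.1% rose, and the median was -0.02. By day 14, 26 of the 46 were lower than at day 0 and 0 higher, with a median of -0.46, while 18.8% of all genes fell and 36.2% rose, with a median of 0.22. Set against day 2, 30 of the 46 rose at day 14 and 0 fell, with a median of 0.47, against 27.4% of all genes that rose, 3.79% that fell and a median of 0.25. The comparisons share samples, so they are not independent of each other.

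The count of genes higher at day 14 than at day 2 depends on how the samples are scaled. Under median-of-ratios scaling, which brings the all-gene median to -0.01, 13 members rose and 2 fell, and under quantile normalization 14 rose and 2 fell. Over all genes, 12.5% rose and 11.7% fell under median-of-ratios, and 11.6% rose and 15% fell under quantile normalization. The pair of members that fell, Psmb1 and Psmd10, was the same under both. Relative to the median of all genes, the median member at day 14 over day 2 stood 0.22 higher on the log2 scale as deposited, 0.20 higher under median-of-ratios and 0.28 higher under quantile normalization. At day 2 against day 0, 38 fell under median-of-ratios, against 33.4% of all genes, and 33 under quantile normalization, against 27.3% of all genes. The median member at day 2 stood 1.01 below the median of all genes as deposited or under median-of-ratios but 0.68 below it under quantile normalization. For day 14 relative to day 0 the number that fell was 39 under median-of-ratios, against 31.7% of all genes, and 26 under quantile normalization, against 26.5% of all genes. The median member there stood 0.68 below the median of all genes as deposited, 0.71 below it under median-of-ratios and 0.35 below it under quantile normalization. Without day 2 replicate 3, the sample with the large Mir6236 share, 19 members were higher at day 14 than at day 2, against 18.8% of all genes. Without day 14 replicate 3 the number was 20, against 20.9% of all genes.

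**Figure D1:**
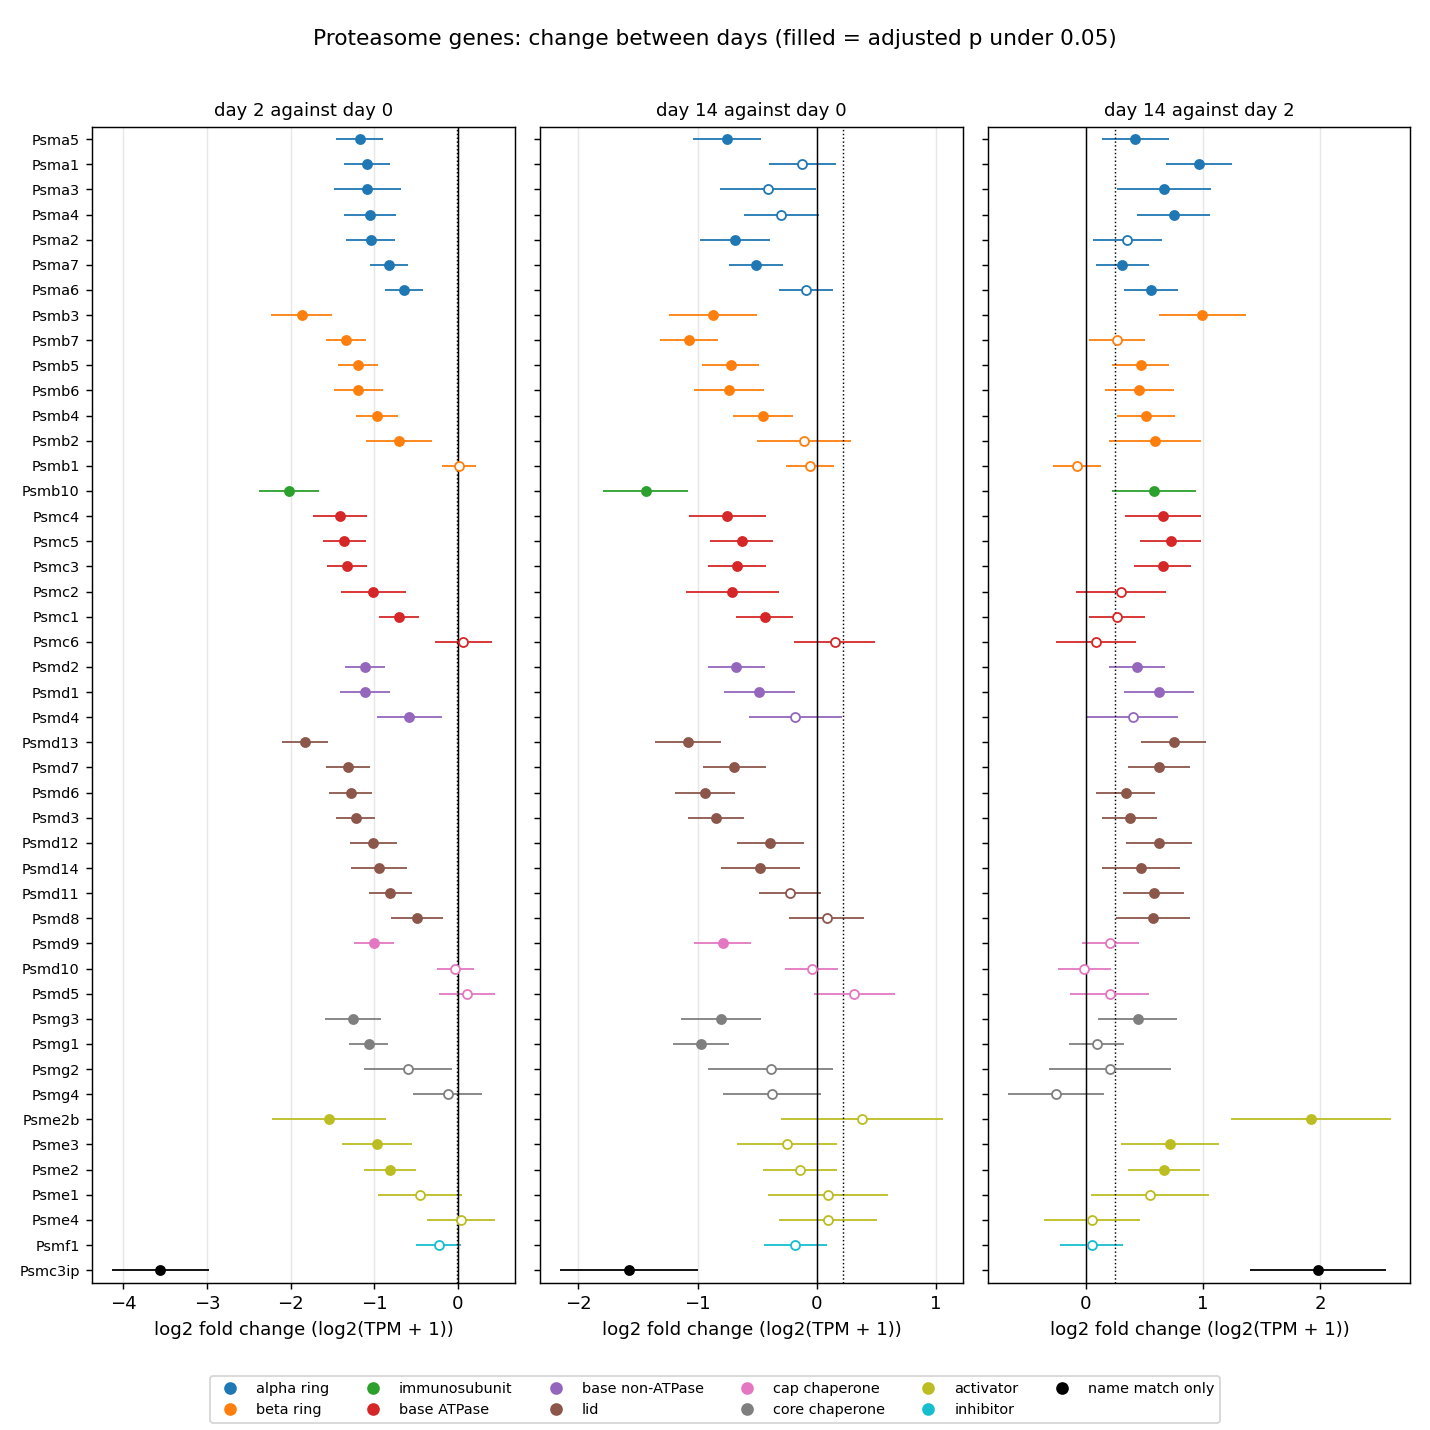
Log2 fold change with 95% confidence interval (x axis) of the 46 tested genes (rows), coloured by role, for the 3 pairs of days. Filled points have a limma adjusted p under 0.05, the solid line is 0 and the dotted line is the median of all genes. In the panel of day 2 over day 0 the 37 filled points lie left of 0. The intervals of Psmb1, Psmc6, Psmd5, Psmd10, Psme1, Psme4, Psmf1 and Psmg4 span 0 in that panel.

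The core lost about as much transcript as the whole group. Its 14 constitutive genes, 7 of the alpha ring and 7 of the beta ring, summed to 3853 ± 59.8, 1989 ± 167 and 2747 ± 321 TPM at days 0, 2 and 14 (SD, n = 3 each). The sums did not overlap between days, and the sample with the highest sum was replicate 2 at day 2 and replicate 3 at day 14. Day 2 had 13 of the 14 lower than day 0 (median log2 fold change -1.06), and day 14 had 8 of the 14 lower than day 0 (median -0.48). That day 14 count was 13 under median-of-ratios scaling and 7 under quantile normalization. From day 2 onward to day 14, 11 rose as deposited. Under either median-of-ratios or quantile scaling 4 rose and 1, Psmb1, fell. Of all genes, 31.9% fell at day 2 against day 0 as deposited. At day 14 against day 0 it was 18.8% as deposited, 31.7% under median-of-ratios and 26.5% under quantile normalization. From day 2 to day 14, 27.4%, 12.5% and 11.6% of all genes rose in the same order of settings. These shares apply to the alpha and beta ring counts below as well.

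All 7 alpha subunits, which form the gate and the docking face of the core, fell at day 2. Their log2 fold changes lay between -1.18 (Psma5) and -0.65 (Psma6), and under quantile normalization Psma6 was no longer called (-0.17, limma adjusted p = 0.0811). Psma5 had 192, 189 and 187 TPM at day 0, 74.6, 89.2 and 87 at day 2, and 93.7, 116 and 129 at day 14. Each day stood clear of the others. Its log2 fold change was -1.18 (SE 0.127, limma adjusted p = 5.84e-05) at day 2 and -0.75 (SE 0.127, limma adjusted p = 0.00112) at day 14, both against day 0. Psma1 had 201, 215 and 217 TPM at day 0, 88.4, 117 and 93.1 at day 2, and 179.7, 187 and 217 at day 14, so that 2 of the 3 samples of day 14 lay below the day 0 range and 1 inside it. It was lower at day 2 (-1.09, SE 0.123, limma adjusted p = 7.79e-05), and at day 14 its log2 fold change against day 0 was -0.12 (SE 0.123, limma adjusted p = 0.428). Its rise at day 14 over day 2 was the largest of the alpha ring (0.97, SE 0.123, limma adjusted p = 0.000623). Psma6 had 226, 253 and 233 TPM at day 0, 146, 167 and 141 at day 2, and 206, 223 and 240.0 at day 14, and its day 14 and day 0 samples overlapped. Only 3 alpha genes, Psma2, Psma5 and Psma7, passed the test as lower at day 14 against day 0 as deposited, while median-of-ratios scaling called all 7 lower (Psma1 at -0.42, limma adjusted p = 0.00905).

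At day 2 the beta ring held both the core gene that fell most and the one core gene not called. Psmb3, a subunit with no active site, had 486, 448 and 446 TPM at day 0, 114, 136 and 126 at day 2, and 193, 258 and 316 at day 14. The 3 days did not overlap, and the day 2 log2 fold change against day 0, -1.87 (SE 0.163, limma adjusted p = 1.66e-05), was the largest fall of the 14 core genes. Day 14 gave -0.87 (SE 0.163, limma adjusted p = 0.00191) relative to day 0 and 0.99 (SE 0.163, limma adjusted p = 0.00226) relative to day 2. Psmb1, a subunit of the same ring and also without an active site, had 318, 350.0 and 321 TPM at day 0, 332, 356 and 311 at day 2, and 300.2, 314 and 335 at day 14. The 3 days of Psmb1 overlapped throughout. Its log2 fold change was 0.01 at day 2 (95% interval -0.19 to 0.22, limma adjusted p = 0.901) and -0.06 at day 14 (95% interval -0.26 to 0.14, limma adjusted p = 0.591) against day 0. That call depends on the scaling: relative to day 0, quantile normalization called Psmb1 higher at both days (0.18, limma adjusted p = 0.0435 at day 14), and median-of-ratios called it lower at day 14 (-0.36, limma adjusted p = 0.00333). The ratio of Psmb1 to Psmb3 TPM was 0.654, 0.781 and 0.72 at day 0, 2.91, 2.61 and 2.47 at day 2, and 1.56, 1.22 and 1.06 at day 14. A ratio within a sample does not depend on the scaling of that sample, and this one did not overlap between days. Both genes were chosen for their day 2 values, as the largest fall of the core and its only uncalled gene. The separation of day 2 from day 0 is therefore no independent support. Among the 14 core genes the most abundant had 4.62 times the mean TPM of the least abundant at day 0, 7.02 times at day 2 and 4.36 times at day 14, and the most abundant was Psmb3 at day 0, Psmb1 at day 2 and Psmb4 at day 14.

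**Figure D2:**
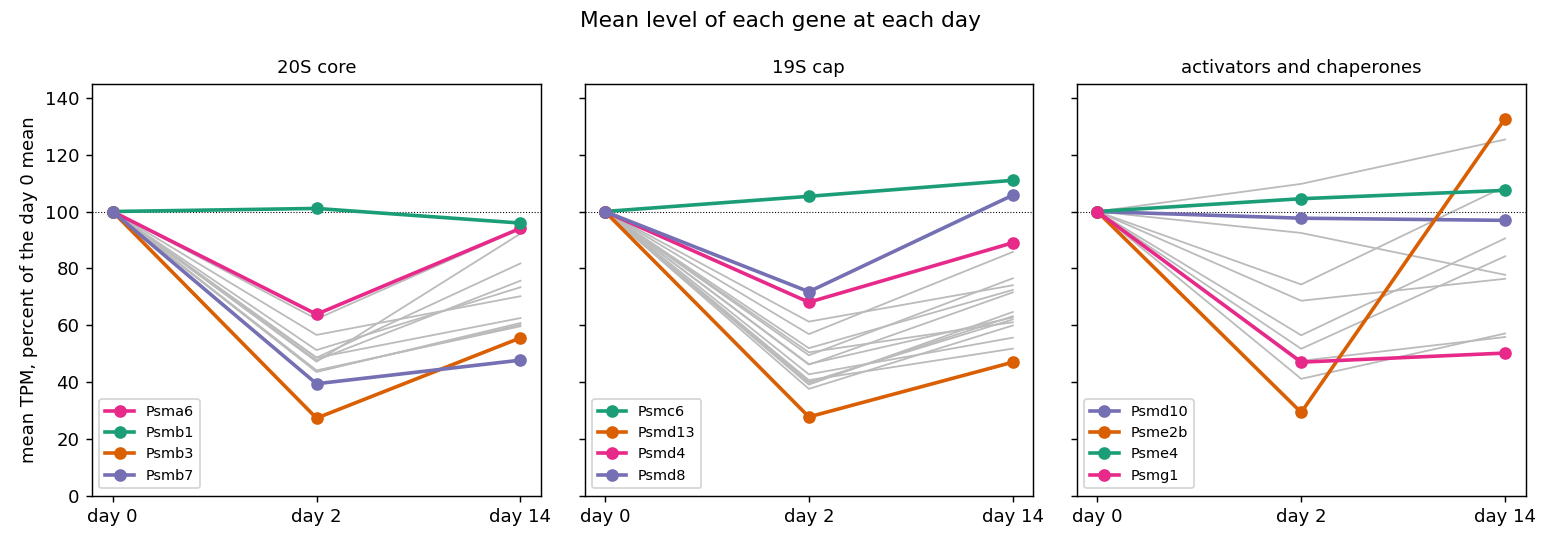
Mean TPM of each gene as a percentage of its day 0 mean (y axis) at days 0, 2 and 14 (x axis), for the core, the cap, and the activators and chaperones. Coloured lines are the genes named in each panel and grey lines the others. At day 2 Psmb3 was at 27.3% and Psmd13 at 27.7% of day 0, while Psmb1 was at 101.1%, Psmc6 at 105.3% and Psme4 at 104.5%.

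The 3 constitutive active-site genes fell together at day 2 and moved by similar amounts. Psmb5, the chymotrypsin-like subunit, had 252, 257 and 237 TPM at day 0, 107, 106 and 112 at day 2, and 129, 163 and 161 at day 14. Psmb6, the caspase-like subunit, had 251, 238 and 217 TPM at day 0, 119.7, 96.9 and 92 at day 2, and 151, 123 and 151 at day 14. Psmb7, the trypsin-like subunit, had 355, 377 and 378 TPM at day 0, 144, 150.2 and 143 at day 2, and 163, 160.2 and 205 at day 14. For each of the 3, every sample of days 2 and 14 lay below every sample of day 0. Relative to day 0, the log2 fold change of Psmb5 at day 2 was -1.19 (SE 0.107, limma adjusted p = 1.89e-05). For Psmb6 it was -1.19 (SE 0.13, limma adjusted p = 6.23e-05), and for Psmb7 -1.34 (SE 0.107, limma adjusted p = 9.47e-06). At day 14 Psmb7 had the smallest share of its day 0 mean among the 14 core genes, 47.7% (-1.07, SE 0.107, limma adjusted p = 7.8e-05), while Psmb5 stood at 60.8% (-0.72, SE 0.107, limma adjusted p = 0.000562) and Psmb6 at 60.1% (-0.73, SE 0.13, limma adjusted p = 0.00146). Day 14 was higher than day 2 for Psmb5 (0.47, SE 0.107, limma adjusted p = 0.0105) and Psmb6 (0.46, SE 0.13, limma adjusted p = 0.027), and Psmb7 did not pass that test (0.27, SE 0.107, limma adjusted p = 0.0866). Neither call held under the other scalings: for Psmb5 median-of-ratios gave 0.19, limma adjusted p = 0.286, and quantile normalization 0.23, limma adjusted p = 0.176, and for Psmb6 they gave 0.17, limma adjusted p = 0.333, and 0.21, limma adjusted p = 0.273.

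Of the 3 immunosubunits, Psmb10 alone was read at a level that could be tested. Psmb10 had 50.3, 51.6 and 48.7 TPM at day 0, 12.8, 11 and 11.2 at day 2, and 21.7, 19.3 and 13.7 at day 14. Every sample of days 2 and 14 lay far below every sample of day 0, and day 14 lay above day 2. Its log2 fold change was -2.02 (SE 0.158, limma adjusted p = 8.62e-06) at day 2 and -1.43 (SE 0.158, limma adjusted p = 0.000128) at day 14 against day 0, the largest fall of any tested subunit at both days. Day 14 over day 2 gave 0.59 (SE 0.158, limma adjusted p = 0.0218). The last call did not hold under every scaling: median-of-ratios gave 0.32, limma adjusted p = 0.185, and quantile normalization 0.29, limma adjusted p = 0.232. Psmb10 also lost ground to its constitutive partner Psmb7: the ratio of Psmb10 to Psmb7 TPM was 0.142, 0.137 and 0.129 at day 0, 0.0891, 0.0729 and 0.0781 at day 2, and 0.133, 0.12 and 0.0667 at day 14. All 3 ratios at day 2 lay below those at day 0, and the day 14 ratios spread from below the day 2 range into the day 0 range.

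Psmb8 and Psmb9 were listed at 0 in 8 of the 9 samples each. The exception was 0.0825 TPM for Psmb8 in day 14 replicate 3 and 0.294 TPM for Psmb9 in day 14 replicate 1. Their partners Psmb5 and Psmb6 were above 90 TPM in every sample. Psma8, an alpha subunit of the testis proteasome, reached at most 0.284 TPM, and Psmb11, a beta subunit of thymic epithelium, at most 0.935 TPM. These 4 were the members not tested. Immune cells express Psmb8 and Psmb9 at high levels, and the immune markers beside them were low, with Ptprc at most 0.515 TPM in any sample.

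**Figure D3:**
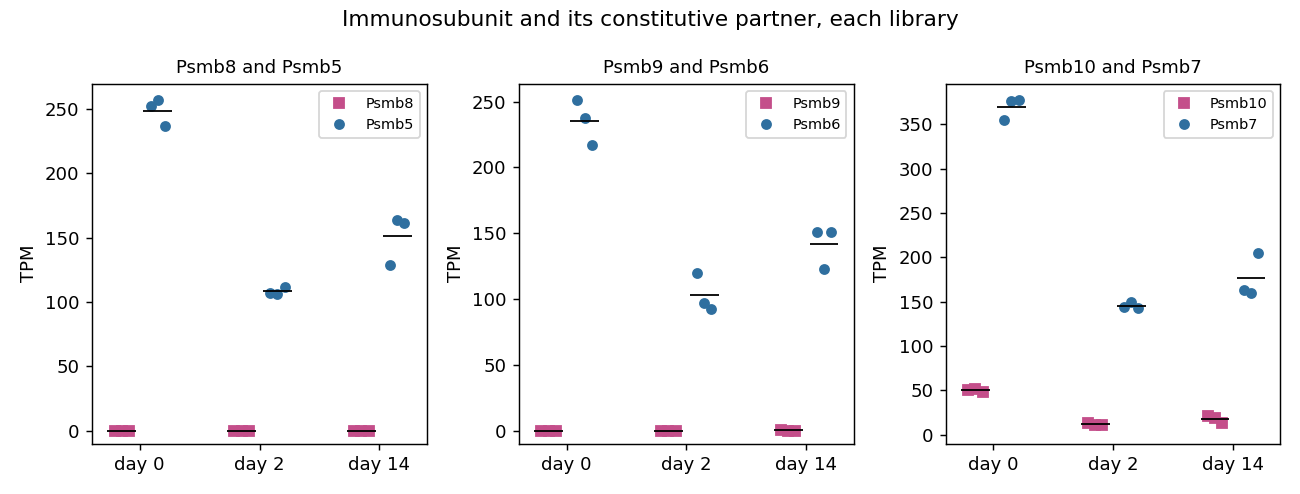
TPM (y axis) of each immunosubunit (squares) and its constitutive partner (circles) in every sample at days 0, 2 and 14 (x axis), with the mean of 3 samples as a line. Psmb8 and Psmb9 lie at 0 or near it on all days, while Psmb10 lies between 48.7 and 51.6 TPM at day 0 and between 11 and 21.7 TPM later.

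The genes that act with the immunoproteasome in antigen presentation did not share one pattern. In the mouse annotation from RefSeq, Psmb9, Tap1, Psmb8 and Tap2 lie side by side on chromosome 17, and Tap1 and Tap2 encode the peptide transporter of the endoplasmic reticulum. Tap1 reached at most 0.319 TPM, and Nlrc5, the transactivator of class I genes, at most 0.149 TPM, so neither was tested. Of the 9 tested genes of class I antigen processing, 1 rose and 4 fell at day 2, and 4 rose and 1 fell at day 14, each against day 0, and 6 were higher at day 14 than at day 2. The shares over all tested genes, given above, were 27.1% higher and 31.9% lower at day 2, 36.2% higher and 18.8% lower at day 14, and 27.4% higher between these days. On the median-of-ratios scale, 2 were called higher at day 14 against day 0 and 2 lower, against 24.5% and 31.7% of all genes. At day 14 against day 2, 4 were higher under median-of-ratios and 3 under quantile normalization, against 12.5% and 11.6% of all genes. Tapbp, which bridges the transporter and class I molecules, had 23.6, 23 and 18.6 TPM at day 0, 34.2, 17.9 and 29.3 at day 2, and 67, 62.1 and 47.5 at day 14. The day 14 samples lay above all others (log2 fold change against day 0 1.39, SE 0.23, limma adjusted p = 0.00102).

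The cap fell by about as much as the core, to 50.1% of its day 0 sum at day 2. Its 17 subunits summed to 2883 ± 42.3, 1445 ± 164 and 2035 ± 173 TPM at days 0, 2 and 14 (SD, n = 3 each), and the ratio of the cap sum to the core sum was 0.748, 0.747 and 0.75 at day 0, 0.781, 0.733 and 0.666 at day 2, and 0.795, 0.712 and 0.723 at day 14. That ratio overlapped between all days. Below day 0 were 16 of the 17 at day 2 (median -1.11) and 13 at day 14 (median -0.63). Above day 2 were 13 at day 14 as deposited, 7 under median-of-ratios scaling and 8 under quantile normalization. Of all genes, 27.4%, 12.5% and 11.6% were above day 2 in the same order of settings. Below day 0 as deposited were 31.9% of all genes at day 2 and 18.8% at day 14. Under quantile normalization 27.3% were below day 0 at day 2. These shares apply to the base and lid counts below as well.

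**Figure D4:**
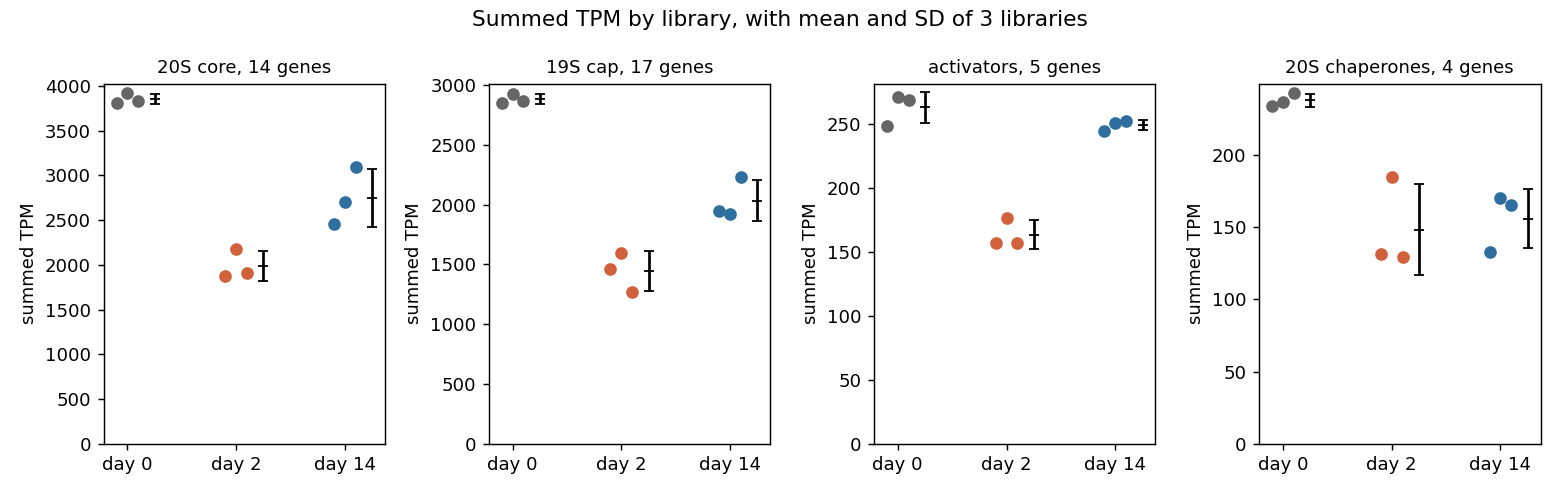
Summed TPM (y axis) of the core, the cap, the activators and the core chaperones in every sample at days 0, 2 and 14 (x axis), with the mean and SD of 3 samples at the side. The core sum averaged 1989 TPM at day 2 and 2747 TPM at day 14, against 3853 TPM at day 0, while the activator sum at day 14 overlapped that at day 0.

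Of the 6 ATPases that unfold substrates at the base, 5 fell at day 2 and 5 at day 14 against day 0, and the exception at both was Psmc6. Psmc4 had 206, 213 and 196 TPM at day 0, 71.7, 89.4 and 70.1 at day 2, and 103, 117 and 147 at day 14, with no overlap between days. Its log2 fold change was -1.41 (SE 0.144, limma adjusted p = 4.14e-05) at day 2 and -0.75 (SE 0.144, limma adjusted p = 0.00223) at day 14 against day 0. Psmc5 had 236, 235 and 238 TPM at day 0, 88.9, 107 and 81.4 at day 2, and 150.2, 140.3 and 168 at day 14, and it had the largest rise of the ATPases between days 2 and 14 (0.73, SE 0.116, limma adjusted p = 0.00198). Psmc6 had 82.7, 90.1 and 103 TPM at day 0, 85.5, 119 and 86.5 at day 2, and 99.4, 92.7 and 114 at day 14, with all days overlapping. Its log2 fold change was 0.06 at day 2 (95% interval -0.28 to 0.41, limma adjusted p = 0.738) and 0.15 at day 14 (95% interval -0.19 to 0.49, limma adjusted p = 0.424) against day 0, and quantile normalization called it higher at day 2. The 6 ATPases occupy 1 ring, and Psmc6 was the lowest of the 17 cap subunits at day 0 by mean TPM.

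The 3 base subunits that are not ATPases all fell at day 2 and 2 of them at day 14 on the deposited scale. Psmd4, a ubiquitin receptor, had 191, 188 and 181 TPM at day 0, 164, 110.4 and 107 at day 2, and 195, 143 and 161 at day 14. Its day 2 samples lay below day 0, with replicate 1 the highest at both later days, and its log2 fold change was -0.58 (SE 0.173, limma adjusted p = 0.017) at day 2 and -0.18 (SE 0.173, limma adjusted p = 0.401) at day 14 against day 0. Quantile normalization did not call Psmd4 at day 2 (-0.14, limma adjusted p = 0.54), and median-of-ratios called it lower at day 14 (-0.47, limma adjusted p = 0.0359). The scaffolds Psmd1 and Psmd2 fell by 1.11 each on the log2 scale at day 2 against day 0.

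On the deposited scale all 8 lid genes fell at day 2, 6 of them at day 14 against day 0, and all 8 were higher at day 14 than at day 2. Quantile normalization left 7 called at day 2, and either scaling left 4 higher at day 14 than at day 2. Psmd13, a structural subunit of the lid, had 146, 149.8 and 134 TPM at day 0, 44, 41.5 and 33.8 at day 2, and 60.7, 68.7 and 72.7 at day 14. The days did not overlap, and its log2 fold change was -1.83 (SE 0.122, limma adjusted p = 3.35e-06) at day 2 and -1.08 (SE 0.122, limma adjusted p = 0.00014) at day 14 against day 0. Day 14 over day 2 gave 0.75 (SE 0.122, limma adjusted p = 0.00212). Psmd8, another structural subunit, had 219.9, 259 and 236 TPM at day 0, 192, 186 and 135 at day 2, and 244, 244 and 268 at day 14. It fell least in the lid at day 2 (-0.49, SE 0.14, limma adjusted p = 0.0136), a call that quantile normalization did not make (limma adjusted p = 0.982), and its day 14 samples overlapped day 0 (0.08, SE 0.14, limma adjusted p = 0.636), a difference that quantile normalization called higher. The deubiquitinase Psmd14 was at 51.9% of its day 0 mean at day 2 and at 72.4% at day 14.

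The helpers that assemble the particle did not move as one. Psmd5, Psmd9 and Psmd10 escort the ATPases during assembly of the base, a role known from yeast and human cells. Psmd9 was lower at day 2 (-1.0, SE 0.107, limma adjusted p = 5.35e-05) and at day 14 (-0.79, SE 0.107, limma adjusted p = 0.000345) against day 0. Psmd10 had 21.2, 22.7 and 24.5 TPM at day 0, 21.2, 23.3 and 22.4 at day 2, and 22.1, 21.3 and 22.9 at day 14, with the days overlapping, and median-of-ratios scaling called it lower at day 14 against day 0 (-0.33, limma adjusted p = 0.0126). Psmd5 had 55.6, 55 and 57.9 TPM at day 0, 53.1, 77.1 and 54.6 at day 2, and 68.3, 63.8 and 79.1 at day 14. The log2 fold change of Psmd5 was 0.11 at day 2 (95% interval -0.23 to 0.45, limma adjusted p = 0.545) and 0.32 at day 14 (95% interval -0.02 to 0.65, limma adjusted p = 0.101) against day 0. Under quantile normalization Psmd5 was called higher at both days.

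Psmg1 to Psmg4 guide the alpha ring as it forms. Psmg1 had 60.4, 65.3 and 61.8 TPM at day 0, 28.4, 32.6 and 27.1 at day 2, and 31.3, 33.5 and 29.3 at day 14. Days 2 and 14 overlapped each other and lay below day 0 (-1.07, SE 0.105, limma adjusted p = 3.21e-05 at day 2, -0.97, SE 0.105, limma adjusted p = 0.000114 at day 14). Psmg3 had 52.7, 54.2 and 50.1 TPM at day 0, 23.3, 22.7 and 18.6 at day 2, and 24.5, 28.9 and 36.2 at day 14, also below day 0 at both days (-1.25, SE 0.149, limma adjusted p = 0.000106 at day 2, -0.81, SE 0.149, limma adjusted p = 0.00182 at day 14), with a rise between days 2 and 14 that was close to the threshold (0.44, SE 0.149, limma adjusted p = 0.049) and was called under neither other scaling. Psmg2 had 62.7, 67.8 and 75.7 TPM at day 0, 36.6, 68.8 and 36 at day 2, and 44.5, 56.2 and 56.6 at day 14. Its day 2 replicate 2 lay inside the day 0 range and the other day 2 samples far below it, and the test missed the threshold (-0.60, SE 0.232, limma adjusted p = 0.0501), which median-of-ratios scaling passed (-0.61, limma adjusted p = 0.0308). Psmg4 did not pass at day 2 (-0.12, SE 0.182, limma adjusted p = 0.585) or at day 14 (-0.38, SE 0.182, limma adjusted p = 0.106). Median-of-ratios scaling called all 4 lower at day 14, Psmg4 at -0.67, limma adjusted p = 0.0126, and Psmg2 at -0.68, limma adjusted p = 0.0215. Of all genes, 31.7% were lower under that scaling. The 4 together summed to 238 ± 4.68, 148 ± 31.5 and 156 ± 20.2 TPM at days 0, 2 and 14 (SD, n = 3 each), and the sums of days 2 and 14 overlapped, at 62.3% and 65.5% of the day 0 sum. The core stood at 51.6% of its day 0 sum at day 2 and 71.3% at day 14.

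The activators had 0 calls at day 14 against day 0. Their 5 genes summed to 263 ± 12.5, 163 ± 11.3 and 249 ± 4.08 TPM at days 0, 2 and 14 (SD, n = 3 each). The day 2 sums lay below the others, and the day 14 and day 0 sums overlapped. Relative to day 0, 3 of the 5 fell at day 2 (median -0.81). Day 14 over day 0 had a median of 0.09 as deposited, -0.20 under median-of-ratios scaling, under which Psme2 and Psme3 fell, and -0.02 under quantile normalization. Day 14 was higher than day 2 for 3 genes as deposited and for 1, Psme2b, under each of these scalings. Of all genes, 27.4% were higher there as deposited, 12.5% under median-of-ratios and 11.6% under quantile normalization. Against day 0 as deposited, 31.9% of all genes fell at day 2, and 18.8% fell and 36.2% rose at day 14. Under median-of-ratios 31.7% fell at day 14. Counts out of 5 genes cannot be told well from these shares.

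Psme1 had 54.2, 53.6 and 52.4 TPM at day 0, 47.5, 27.4 and 44.2 at day 2, and 75.2, 52 and 47.1 at day 14. Its samples of days 2 and 14 varied widely within a day, with replicate 1 the highest of each, and its log2 fold change was -0.46 (SE 0.223, limma adjusted p = 0.106) at day 2 and 0.09 (SE 0.223, limma adjusted p = 0.745) at day 14 against day 0. Psme2, its partner in the heptamer ring, had 54.6, 58.7 and 48.3 TPM at day 0, 32.4, 25.3 and 33.5 at day 2, and 49.6, 52.8 and 43.9 at day 14. The day 2 samples lay below the other days (-0.81, SE 0.136, limma adjusted p = 0.000797 against day 0), and day 14 overlapped day 0 (-0.14, SE 0.136, limma adjusted p = 0.401). The difference between day 14 and day 2 was 0.67 (SE 0.136, limma adjusted p = 0.00632). Psme2b had 8.3, 8.01 and 12.3 TPM at day 0, 1.49, 4.75 and 2.12 at day 2, and 10.2, 12.3 and 15.4 at day 14. It was lower at day 2 (-1.54, SE 0.302, limma adjusted p = 0.00192) and at day 14 overlapped day 0 (0.38, SE 0.302, limma adjusted p = 0.308), and day 14 over day 2 gave 1.92 (SE 0.302, limma adjusted p = 0.00184). The coding sequence of Psme2b in the mouse annotation differs from that of Psme2 at 5 of 720 bases (99.3% identity), so most reads could come from either gene and the split between them is uncertain. The immunosubunits are far less alike to their partners, between 64.3% and 67% of bases, with Psmb8 to Psmb5 the nearest pair.

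Psme3, the nuclear activator, had 105, 120.2 and 128 TPM at day 0, 50.5, 80.3 and 51.7 at day 2, and 84.1, 101 and 112 at day 14. Day 2 lay below day 0 (-0.97, SE 0.187, limma adjusted p = 0.00178), and at day 14 only replicate 3 lay inside the day 0 range (-0.25, SE 0.187, limma adjusted p = 0.278). The difference between day 14 and day 2 was 0.72 (SE 0.187, limma adjusted p = 0.0183). Psme4, which caps the core without ATP, had 26.1, 30.4 and 28.3 TPM at day 0, 25.2, 38.5 and 24.9 at day 2, and 25.3, 32.1 and 33.7 at day 14. Its days overlapped (0.03, SE 0.181, limma adjusted p = 0.88 at day 2, 0.09, SE 0.181, limma adjusted p = 0.683 at day 14). Relative to the core sum, Psme4 was 0.00684, 0.00776 and 0.0074 at day 0, 0.0134, 0.0177 and 0.013 at day 2, and 0.0103, 0.0119 and 0.0109 at day 14, and the days did not overlap. The core sums themselves did not overlap between days, so a gene with steady TPM would give such a ratio. It is therefore no separate result on Psme4. The inhibitor Psmf1 had 15, 17.2 and 17 TPM at day 0, 13.8, 14.5 and 13.2 at day 2, and 12.7, 14.5 and 16 at day 14. Its day 2 samples lay just below day 0, without passing the test (-0.23, SE 0.118, limma adjusted p = 0.12), and its day 14 samples overlapped day 0 (-0.18, SE 0.118, limma adjusted p = 0.219). Both other scalings called Psmf1 lower at day 14 (median-of-ratios -0.46, limma adjusted p = 0.0047, and quantile normalization -0.43, limma adjusted p = 0.0115).

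Psmc3ip, kept apart above, had 36.2, 43.7 and 42.5 TPM at day 0, 2.8, 4.06 and 1.29 at day 2, and 11, 13.5 and 14.7 at day 14. The days did not overlap. Its log2 fold change was -3.56 (SE 0.257, limma adjusted p = 5.19e-06) at day 2 and -1.58 (SE 0.257, limma adjusted p = 0.000938) at day 14 against day 0, the largest fall of all 46 at both days. Day 14 over day 2 gave 1.98 (SE 0.257, limma adjusted p = 0.000685). Without it, 36 of 45 members fell at day 2 and 25 at day 14, both relative to day 0, and 29 rose between days 2 and 14. The shares of all genes were 31.9%, 18.8% and 27.4%.

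Samples of a day also ranked alike across members. Day 2 replicate 2 was the highest of its day in 35 of the 46 members (76.1%), against 50.2% of all genes, and day 14 replicate 3 in 37 of the 46 (80.4%), against 38.6% of all genes. Members are therefore not independent readings of a day. The part of the Mir6236 share, and of the lower keratin levels at days 2 and 14, in the proteasome values was not tested. With Mir6236 and Rn45s removed and the rest rescaled, 37 members were lower than day 0 at day 2 and 26 at day 14, and 25 rose between days 2 and 14. The shares of all genes there were 28.8%, 18.5% and 22.8%.

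Related genes outside the Psm names gave mixed calls, to be read against the shares of all genes given above (27.1% higher and 31.9% lower at day 2, 36.2% and 18.8% at day 14). Of 6 genes for ubiquitin and its activating enzymes, 2 rose and 1 (Uba1) fell at day 2, and the same 3 were called in the same direction at day 14. Under median-of-ratios scaling 0 of the 6 were higher at day 14 than at day 0, against 24.5% of all genes. Uba1, the main activating enzyme, had 174, 173 and 178 TPM at day 0, 114, 119.9 and 106 at day 2, and 127, 136 and 135 at day 14, all later samples below day 0 (-0.62, SE 0.0839, limma adjusted p = 0.000223 at day 2, -0.40, SE 0.0839, limma adjusted p = 0.00359 at day 14).

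Among 16 partners of the proteasome outside the Psm names, 3 rose and 9 fell at day 2, and 4 rose and 8 fell at day 14, each against day 0. Between days 2 and 14, 5 rose (31.2%) and 1 fell (6.25%), against 27.4% and 3.79% of all genes. Under median-of-ratios 1 rose and 1 fell there, against 12.5% and 11.7% of all genes. Under quantile normalization 1 rose and 2 fell, against 11.6% and 15%. With median-of-ratios factors, 11 were lower at day 14 against day 0 and 1 was higher, against 31.7% and 24.5% of all genes. Uchl5, a deubiquitinase of the cap, had 43.8, 54.9 and 54.2 TPM at day 0, 14.9, 15.8 and 10.4 at day 2, and 20.9, 18.7 and 19.4 at day 14, with no overlap between days (-1.83, SE 0.161, limma adjusted p = 1.66e-05 at day 2, -1.33, SE 0.161, limma adjusted p = 0.000197 at day 14). Zfand5, a zinc-finger protein that stimulates the proteasome and is induced in wasting mouse muscle, went the opposite way with 13.9, 14.9 and 14.2 TPM at day 0, 42.1, 47.9 and 38.6 at day 2, and 32, 32.9 and 30.5 at day 14. The days did not overlap here either (1.51, SE 0.106, limma adjusted p = 4.43e-06 at day 2, 1.10, SE 0.106, limma adjusted p = 6.82e-05 at day 14). Pomp, the maturation factor that helps assemble the core and is named here after its values were seen, had 248, 235 and 230.5 TPM at day 0, 79.4, 99.8 and 78.9 at day 2, and 112, 121 and 123 at day 14 (-1.46, SE 0.109, limma adjusted p = 6.22e-06 at day 2, -1.0, SE 0.109, limma adjusted p = 0.000123 at day 14).

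Of 11 regulators of proteasome genes and parts of the p97 pathway, 4 rose and 3 fell at day 2 against day 0. At day 14, 8 rose and 1 fell against day 0. Between days 2 and 14, 4 rose (36.4%), against 27.4% of all genes. Under either other scaling 3 rose and 1 fell there. Of all genes, 12.5% rose and 11.7% fell under median-of-ratios, and 11.6% and 15% under quantile normalization. After median-of-ratios scaling 3 were called higher at day 14 against day 0 and 2 lower, against 24.5% and 31.7% of all genes. Nfe2l1 was still higher there (0.67, limma adjusted p = 0.00096). Nfe2l1 had 69.8, 65 and 63.7 TPM at day 0, 98.2, 124 and 115 at day 2, and 126, 125 and 141 at day 14. Every sample of days 2 and 14 lay above day 0, with a difference on the log2 scale of 0.75 (SE 0.109, limma adjusted p = 0.000346) at day 2 and 0.97 (SE 0.109, limma adjusted p = 0.000138) at day 14. The transcript says nothing of the processed, active protein. Maff, a small partner protein of this factor family, had 41.3, 43.3 and 38.9 TPM at day 0, 148, 153 and 108 at day 2, and 132, 116 and 168 at day 14, higher at both days (1.69, SE 0.168, limma adjusted p = 3.47e-05 at day 2, 1.71, SE 0.168, limma adjusted p = 7.28e-05 at day 14). Vcp, the p97 ATPase that extracts ubiquitinated proteins, had 202, 195 and 205 TPM at day 0, 87.2, 103 and 86.3 at day 2, and 157, 161 and 183 at day 14. It was lower at day 2 (-1.12, SE 0.102, limma adjusted p = 2.02e-05), just past the threshold at day 14 (-0.27, SE 0.102, limma adjusted p = 0.0497), a call that quantile normalization did not make and median-of-ratios scaling did (-0.56, limma adjusted p = 0.000625), and higher at day 14 than at day 2 (0.85, SE 0.102, limma adjusted p = 0.000427).

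Promoter sequences were searched for the response elements tied to these regulators. The reason was that the core and cap subunits fell together at day 2, apart from Psmb1 and Psmc6, which were not called. RefSeq promoter windows on GRCm38.p6, the 250 bases before each start, were found for 42 of the 50 members, in 45 windows, with none for Psmb1. The core of the antioxidant response element, TGACNNNGC on either strand, was present in 5 of the 45 windows (11.1%), against 10.2% of all 32851 windows. CCAAT was present in 33.3% of member windows and 33.8% of all windows. The interferon motifs GAAANNGAA and TTCNNNGAA were present in 6.67% and 4.44% of member windows, against 7.13% and 7.02% of all windows. Matches of different motifs were allowed to overlap. The windows with TGACNNNGC belonged to Psmb5, Psmb6, Psmc6, Psmd9 and Psmd12, of which Psmc6 was not called at day 2 and the others fell. The windows are given for the active-site genes Psmb5 and Psmb6, which fell, for Psmc6, which was not called, and for Psmb8, which was listed at 0 in 8 samples. They read 5′ to 3′ on the gene's own strand and end at the base before the start of transcription. Capitals mark TGACNNNGC or its reverse complement in the first 3 and TTCNNNGAA in Psmb8.
Psmb5: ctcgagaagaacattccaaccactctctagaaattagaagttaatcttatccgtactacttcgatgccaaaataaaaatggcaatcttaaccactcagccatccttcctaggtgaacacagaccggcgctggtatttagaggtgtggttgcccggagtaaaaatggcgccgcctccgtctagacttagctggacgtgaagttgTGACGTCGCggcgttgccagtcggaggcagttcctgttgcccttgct
Psmb6: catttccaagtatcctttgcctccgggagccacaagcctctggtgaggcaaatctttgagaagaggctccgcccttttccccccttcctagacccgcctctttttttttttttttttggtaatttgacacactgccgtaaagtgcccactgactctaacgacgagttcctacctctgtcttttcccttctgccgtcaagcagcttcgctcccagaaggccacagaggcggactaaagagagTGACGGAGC
Psmc6: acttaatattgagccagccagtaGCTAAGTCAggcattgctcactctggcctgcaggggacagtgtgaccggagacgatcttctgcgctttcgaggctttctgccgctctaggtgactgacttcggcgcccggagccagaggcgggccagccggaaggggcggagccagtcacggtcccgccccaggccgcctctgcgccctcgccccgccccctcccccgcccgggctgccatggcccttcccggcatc
Psmb8: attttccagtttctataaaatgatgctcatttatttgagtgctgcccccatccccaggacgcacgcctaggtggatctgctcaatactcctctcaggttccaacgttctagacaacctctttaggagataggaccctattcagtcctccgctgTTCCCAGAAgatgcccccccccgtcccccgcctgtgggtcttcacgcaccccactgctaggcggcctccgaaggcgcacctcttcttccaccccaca
The windows lie at chr14:54617996-54618245 on the minus strand (Psmb5), chr11:70525107-70525356 on the plus strand (Psmb6), chr14:45329574-45329823 on the plus strand (Psmc6) and chr17:34197945-34198194 on the plus strand (Psmb8). The match lies 38 bases before the start in Psmb5, ends at the start in Psmb6, and lies 218 bases before it in Psmc6, on the opposite strand. A match is a run of letters and not a measured binding site.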

How the data were processed

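RNA of 9 samples of 6620c1 cells, 3 per day, was sequenced, and per the labels' protocols the libraries were made by a company. The authors deposited gene TPM, quantified with Salmon per the submitters' processing notes; its version and index, and the build and annotation behind it, are not given in the sources. Each column was checked to add up to 1e+06. TPM keep no read totals, so counting error could not be computed.

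The test covered the 12693 genes that reached 1 TPM in 3 samples or more. Log2(TPM + 1) was fitted in 1 model of all 9 samples with limma 3.58.1 (R 4.3.3, eBayes with a trend). P-values are two-sided and Benjamini-Hochberg adjusted over all genes tested, with calls at 0.05. The fit was tested on simulated data. Samples of the same replicate number were not shown to pair: with day means removed, their correlations lay between -0.0709 and 0.318.

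The members, the related lists and the markers were chosen with earlier results of these data known. In full were named all Psme genes, the immunosubunits and their partners, and in each other class the called gene with the largest rise and fall per comparison. From each related list came the largest called rise and fall at day 14 over day 0, and Nfe2l1. Psma6, Psmb1, Psmc6, Psmd4, Psmd5, Psmd8, Psmd9, Psmd10, Psmd14, Psmf1, Psmg2, Psmg4 and Pomp were named after their values were seen. Of 17 partners listed, 16 were found in the table. Coding sequences, from GENCODE M21, are the longest open reading frame of a gene's coding transcripts. Protein sequences were not used here. Plots were made in matplotlib 3.10.9 under Python 3.11.15.

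Alternatives were quantile normalization, median-of-ratios scaling, the 20 most abundant rows removed, Mir6236 and Rn45s removed, a pseudocount of 0.1 or 5, a filter at a mean of 5 TPM or none, fits without a trend, with robust variances, sample weights, a replicate block or only the 2 days compared, and each sample left out.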

Additional observations from a re-analysis of the deposited data

Results flagged for a closer look

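By the test of day 14 against day 2, 30 of the 46 tested members were higher, against 27.4% of all genes. Only the 28 genes followed singly through the alternatives are considered here. Psma1, Psmb3, Psmc5, Psmc3ip, Psmd13 and Psmg3 met the naming rule through the largest called rise of their class in this same comparison. How many of the 28 differed is therefore no independent support. Among these 28, the effects of day 2 and day 14, both against day 0, differed for the following genes. The test came from the same limma fit (adjusted p under 0.05, values on the log2 scale, positive where day 14 was higher). In the core they were Psmb3 (0.99), Psma1 (0.97), Psmb10 (0.59), Psma6 (0.56), Psmb5 (0.47), Psmb6 (0.46) and Psma5 (0.42). In the cap they were Psmd13 (0.75), Psmc5 (0.73), Psmc4 (0.66) and Psmd8 (0.57). Among activators they were Psme2b (1.92), Psme3 (0.72) and Psme2 (0.67), where the split between Psme2 and Psme2b is uncertain. Psmg3 (0.44) of the core chaperones and Psmc3ip (1.98), which is not a subunit, were the others among the 28. Of the 16, 7 were still higher under median-of-ratios scaling (Psma1, Psma6, Psmb3, Psmc3ip, Psmc5, Psmd13 and Psme2b), and under quantile normalization these and Psmc4 were. Of all genes, 12.5% were higher under median-of-ratios and 11.6% under quantile normalization.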

How the results depend on the processing

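The number of proteasome genes lower at day 2 than at day 0 lay between 33 and 39 over all alternatives, and that at day 14 against day 0 between 24 and 39. The shares of all genes lay between 15% and 36.8%, and between 8.67% and 31.7%. Quantile normalization called 3 genes higher at day 2 and 3 at day 14 against day 0, where the deposited scale called 0. At day 14 against day 0, 1 gene was higher with the 20 most abundant rows removed, with sample weights, and with only the 2 days compared, and between 0 and 1 with a sample left out. Day 14 against day 2 had 13 genes higher and 2 lower under median-of-ratios, 14 and 2 under quantile normalization, 19 higher with only these days fitted, and between 19 and 33 with a sample left out. Of all genes, 18.3% were higher with only these days fitted, and between 18.8% and 30.4% with a sample left out. The replicate block, with samples not shown to pair, gave 38 lower at day 2 and 26 at day 14 against day 0, and 28 higher at day 14 against day 2. The shares of all genes under the block were 32.4%, 19.2% and 27.8%.

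Cap medians in this paragraph cover all 20 Psmc and Psmd genes, the 3 cap chaperones included. As deposited they were -1.01 (day 2 over day 0), -0.56 (day 14 over day 0) and 0.45 (day 14 over day 2). For the 17 subunits alone, median-of-ratios gave -0.93 for day 14 over day 0 and 0.29 for day 14 over day 2, and quantile normalization -0.67 for day 2 over day 0 and 0.32 for day 14 over day 2. Medians for day 2 against day 0 under quantile normalization were -0.65 (core), -0.66 (cap), -0.56 (activators) and -0.55 (core chaperones). With the 20 most abundant rows removed they were -0.90, -0.85 and -0.65 for the first 3 classes. For day 14 against day 0, median-of-ratios gave -0.78 (core), -0.85 (cap), -0.20 (activators) and -0.89 (core chaperones), and quantile normalization -0.31 for the core and -0.023 for the activators. The activator median lay between -0.11 and 0.094 with a sample left out. For day 14 against day 2, median-of-ratios gave 0.21 (core), 0.17 (cap), 0.39 (activators) and -0.13 (core chaperones), quantile normalization 0.26, 0.20, 0.42 and -0.13, and removal of the top rows 0.37 for the core. Psmb1 at day 14 against day 0 was 0.18 under quantile normalization. The cause of these moves was not tested.

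Of 1848 values of 28 named genes under alternatives, 1739 kept their side of the threshold and 71 were no longer called (63 of them at day 14 against day 2). Another 37 were newly called. The remaining value was Psmb1 at day 14 against day 0, not called as deposited (-0.06) and called with the other sign under quantile normalization (0.18). A further 53 values changed sign while called neither way. Depth is unknown, so no detection limit is given for Psmb8 and Psmb9.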
